A study of Mus musculus with 13 samples.

Results

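Total RNA of 1 mouse library labelled as primary corneal endothelial cells (pCEC) was set against total RNA from mouse embryonic fibroblasts (D0, replicates 1 to 3). These are 4 of the 13 libraries of a study in which fibroblasts were converted toward corneal endothelial cells with small molecules. The labels give C57BL/6 as the strain of both groups. The pCEC library is labelled as corneal endothelia at postnatal day 30, and the D0 libraries as embryo at E13.5, before any conversion step. Per the labels, cells were flash frozen, RNA was taken with Trizol, and the TruSeq kit started from 1 ug of total RNA. The labels do not say whether animals were pooled, how the cornea was dissected, whether the primary cells were cultured before extraction, or whether the D0 replicates were separate cultures. With 1 pCEC library there is no spread for that side and no test was possible, so every difference below is a difference between 1 library and the spread of 3.

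Corneal endothelial cells line the back of the cornea. They arise from neural crest by way of the periocular mesenchyme, rest on Descemet's membrane, which is rich in collagen VIII, and keep the stroma clear by moving ions and water. The front of the cornea is covered by a stratified epithelium that makes keratins, with the conjunctiva next to it, and the stroma between them holds keratocytes. Each of these tissues has its own set of marker transcripts, and the comparison asked which of them the pCEC library carried.

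The deposited values are FPKM, that is, fragment counts divided by gene length and library size. The table's gene IDs belong to the D0 columns, so the gene of each pCEC value was inferred from the order of the lines and from whole reads. Of the lines with reads in pCEC, 97.66% were placed, holding 98.56% of the FPKM. When the same procedure was run on each D0 library with its IDs hidden, 99.95 to 99.96% of the placed genes were right. Correct placement reached 97.55 to 97.59% among genes with at least 1 FPKM, and 17 to 22 of them per library were wrongly listed at 0. When 20% of the genes were treated as having no D0 reads, 92.17 to 92.45% of those with at least 1 FPKM were placed right, which is the case that applies to genes listed at 0 in D0. Library totals recovered from the values were 20715716 reads in pCEC and 19184645, 24030674 and 18320091 in D0. D0 levels are means ± SD (n = 3). Intervals for pCEC are exact Poisson 95% intervals of the reads and cover counting error only. Differences are pCEC minus the mean of D0 on the log2(FPKM + 1) scale, which understates the change of low genes. Gene positions are those of GENCODE M21 on GRCm38.

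Of 15086 genes at 1 FPKM or more in at least 1 of the 4 libraries, 3106 (20.6%) were higher in pCEC and 2582 (17.1%) were lower. A gene was counted as higher when the log2 difference was at least 1 and pCEC lay above all 3 D0 libraries, and as lower in the mirrored case. By this rule a gene with a D0 mean under 1 FPKM could not be counted as lower. A gene under 1 FPKM in pCEC could not be counted as higher. Together the 2 counts made up 37.7% of the genes. The shares of 20.6% higher and 17.1% lower are the background for the gene list counts below. Between 2 D0 libraries, 1.15 to 1.38% of the same genes lay at least 1 log2 unit apart. The median difference over all genes was 0.11. Spearman's rho across 16138 genes, which are not independent replicates, was 0.733 to 0.735 between pCEC and the D0 libraries and 0.99 to 0.992 between D0 libraries. The mitochondrial genes held 3.19% of the FPKM in pCEC and 2.55 to 2.7% in D0. Of the summed FPKM of 13 listed mitochondrial genes, mt-Co1 alone made 74.3% in pCEC and 41.6% in D0. It was higher in pCEC, at 15777 FPKM against 6436 ± 96.9, while mt-Cytb was lower, at 1273 against 3171 ± 90.9.

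**Figure D1:**
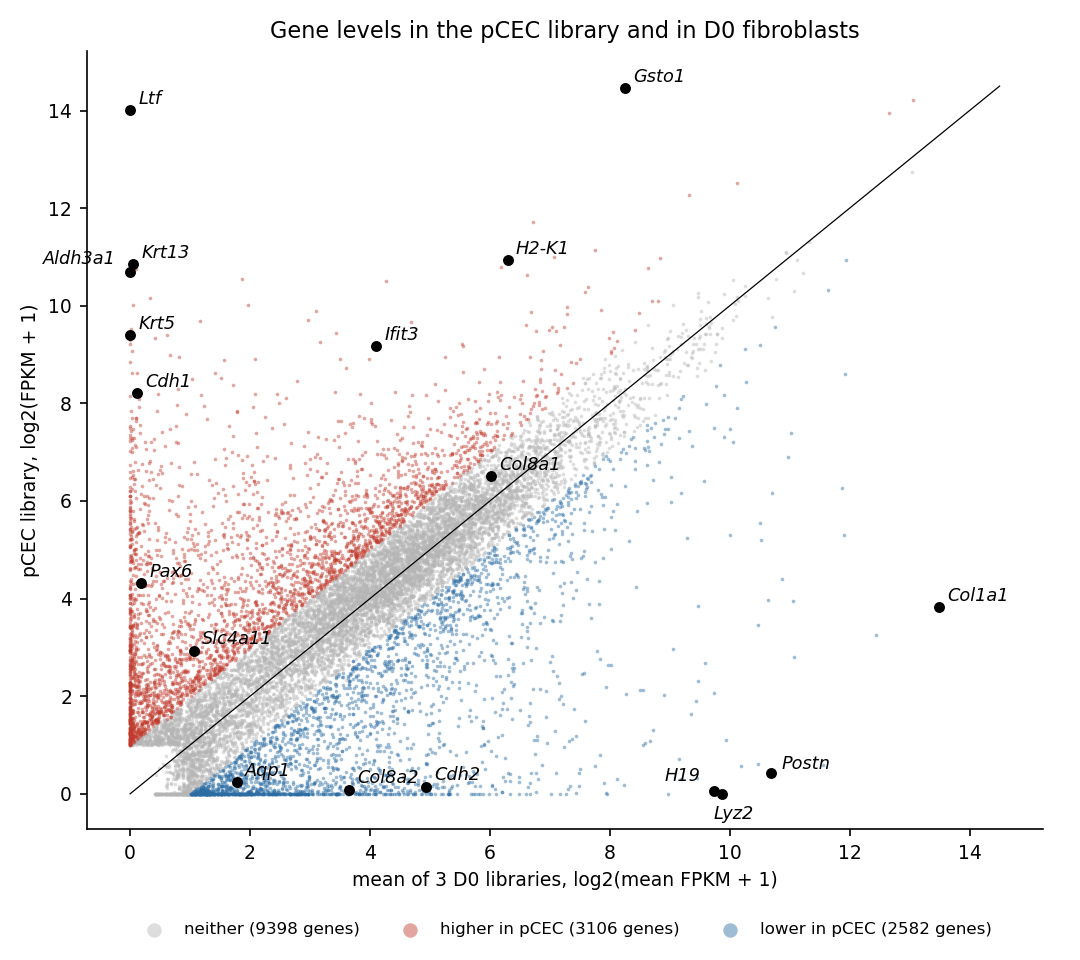
Each point is 1 of 15086 genes, with the mean of the 3 D0 libraries on the horizontal axis and the pCEC library on the vertical axis, both as log2(FPKM + 1), and the diagonal marks equal levels. Krt5, Krt13, Cdh1, Aldh3a1 and Ltf lie along the left edge at high pCEC levels, and Col1a1, Postn, H19 and Lyz2 lie at the lower right.

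Gsto1 and Ltf stood among the most abundant transcripts of pCEC. Gsto1, a glutathione transferase of the omega class, was at 326, 306 and 279.7 FPKM in the D0 libraries and at 22599 in pCEC (interval 22528 to 22670), a difference of 6.21. The gene is annotated on the plus strand of chromosome 19, from 47854970 to 47864790. Ltf, the iron-binding secreted protein lactotransferrin of tears and other secretions, was listed at 0 in all 3 D0 libraries and stood at 16535 FPKM in pCEC (interval 16468 to 16602). Its gene is annotated on the plus strand of chromosome 9, from 111019271 to 111042767. The other genes of the 10 most abundant were the noncoding RNA Gm23935 (19022 FPKM against 8558 ± 5344 in D0), mt-Co1, Eef1a1, Fth1, Anxa1, Ecm1, Eef2 and Ly6e. Anxa1, a calcium-dependent membrane-binding protein, stood at 4963 FPKM against 635 ± 17.8, and Ecm1, a secreted glycoprotein of skin, at 3384 against 105 ± 5.71. The elongation factors Eef1a1 (6875 against 8409.6 ± 412) and Eef2 (2546 against 2545 ± 81.6) were counted in neither direction.

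Most markers of corneal endothelium were not higher in pCEC than in fibroblasts, and several defining ones were near 0. Of 11 markers, 10 were at 1 FPKM or more in some library, 2 of them were higher in pCEC, 6 were lower and 2 were neither, with a median difference of -1.13. Several of the 6 were low in D0 as well, and the count of lower markers was 2 with a pseudocount of 5 FPKM and 3 among genes at 5 FPKM or more. Col8a2, the collagen VIII chain of Descemet's membrane, was at 11.6, 11.7 and 11.2 FPKM in D0 and 0.0619 in pCEC, which is 3 reads (interval 0.0128 to 0.181). Cdh2, the N-cadherin of corneal endothelial junctions, was at 28.9, 28.8 and 31.2 FPKM in D0 and 0.109 in pCEC (9 reads). All 3 fibroblast libraries were above pCEC for both genes. Aqp1, the water channel of corneal endothelium, was at 2.36, 2.6 and 2.33 FPKM in D0 and 0.184 in pCEC (10 reads). Cd200, a surface glycoprotein, stood at 0.106 FPKM in pCEC against 1.61 ± 0.646. Lmx1b and Tfap2b, transcription factors of the anterior eye segment, were listed at 0 in pCEC, where 3 reads would have given 0.065 and 0.0602 FPKM.

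Of the markers not lower, 2 transporters were higher and Col8a1 was neither. Slc4a11, a membrane transporter mutated in human dystrophies of this cell layer, was at 1.21, 1.07 and 0.995 FPKM in D0 and 6.63 in pCEC (interval 5.88 to 7.46), a difference of 1.87. Slc4a4, the sodium bicarbonate cotransporter, was at 1.45, 1.46 and 1.56 FPKM in D0 and 35.1 in pCEC, a difference of 3.86. Col8a1, the other collagen VIII chain, was at 60.8, 61.7 and 68.3 FPKM in D0 and 90.4 in pCEC. This difference of 0.50 did not reach the limit, although pCEC lay above the 3 D0 values. Alcam, an adhesion molecule, was lower at 10.8 against 23.2 ± 0.791. The summed level of the 11 markers was 150.1 FPKM in pCEC, of which Col8a1 made 60.2%, and 137 to 148 in D0. In bulk RNA, fewer cells of a type and less RNA per cell cannot be told apart.

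The markers that stood highest in pCEC were those of epithelia. Of 19 placed pan-epithelial markers, 18 were at 1 FPKM or more in some library and 18 of these were higher in pCEC, with a median difference of 6.57. Only 7 of the 18 had a D0 mean of 1 FPKM or more, so the others could not have been counted as lower. Their summed level was 5279.5 FPKM in pCEC and 28.5 to 35.3 in the D0 libraries. Cdh1, the E-cadherin of epithelial junctions, was at 0.0743, 0.148 and 0.0389 FPKM in D0 and 295 in pCEC (interval 290.3 to 299). Elf3 (393 FPKM), Ehf (228), Klf5 (84.1), Grhl2 (49.2) and Trp63 (47.1), transcription factors of epithelia, had D0 means of 0.0879 ± 0.091, 0.00856 ± 0.0148, 3.2 ± 0.34, 0.00547 ± 0.00947 and 0.0496 ± 0.0177 FPKM. The splicing regulators of epithelia Esrp1 and Esrp2 were at 54.3 and 48.4 FPKM in pCEC, while in D0 Esrp1 was listed at 0 and Esrp2 was at 3.1 ± 0.744. Epcam, a surface protein of simple epithelia, was listed at 0 in pCEC and was at 0.0256, 0.0408 and 0 FPKM in D0.

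Keratins, the intermediate filament proteins of epithelia, were present in both their stratified and their simple forms. Of 20 keratin genes, 17 were at 1 FPKM or more in some library. Of these, 15 were higher in pCEC, 1 was lower and 1 was neither, with a median difference of 6.74, and 6 were listed at 0 in all 3 D0 libraries. A D0 mean of 1 FPKM or more was reached by 5 of the 17, and the others could not have been counted as lower. The pair of basal cells of stratified epithelia, Krt5 and Krt14, stood at 676 and 644 FPKM in pCEC (intervals 668 to 683 and 634 to 653). In D0, Krt5 was listed at 0 in every library and Krt14 was at 0.296, 0.472 and 0.232 FPKM. The keratins of simple epithelia Krt8, Krt18 and Krt19 stood at 365, 691 and 829.7 FPKM in pCEC against 1.84 ± 0.381, 9.75 ± 0.811 and 6.79 ± 0.785 in D0. Krt13, a keratin of non-cornified stratified epithelia such as the conjunctiva, was the highest of the list, with 0, 0.105 and 0 FPKM in D0 and 1846 in pCEC (interval 1825 to 1867). Krt7, found in ductal and conjunctival epithelia, was at 2.82, 2.52 and 2.63 FPKM in D0 and 1494 in pCEC. Krt17 (733 FPKM), Krt6a (282) and Krt16 (3.3), which are made in activated or wounded epidermis, were at or near 0 in D0. Krt6a and Krt6b are near-identical copies, so reads may be split between them. The keratins of cornified epidermis were low, with Krt1 at 0.265 FPKM, Krt10 at 1.71 and Krt2 listed at 0. Krt20, a keratin of intestinal and urothelial cells, was the lower one, at 0.351 FPKM against 3.88 ± 0.159.

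Among surface epithelia of the eye, the corneal and the conjunctival marker lists were both mostly higher in pCEC, and each had members at or near 0. Of 11 corneal epithelial markers at 1 FPKM or more, 10 were higher in pCEC and 1 was lower. Only 3 of the 11 had a D0 mean of 1 FPKM or more. Krt12, the keratin that defines the differentiated corneal epithelium, was represented by 1 read in pCEC (0.0261 FPKM, interval 0.00066 to 0.145) and listed at 0 in D0. Aldh3a1, an aldehyde dehydrogenase that is abundant in corneal epithelium, was listed at 0 in D0 and stood at 1642 FPKM in pCEC (interval 1626 to 1657). Pax6, the eye field transcription factor that corneal and conjunctival epithelia keep, was at 0.0594, 0.285 and 0.0622 FPKM in D0 and 18.9 in pCEC (interval 17.5 to 20.3). Tkt, a transketolase and corneal crystallin, was at 105, 103 and 96.1 FPKM in D0 and 495 in pCEC. The secreted Slurp1 was at 4.68 FPKM in pCEC, while Lypd2 was represented by 1 read and Upk1b was lower (0.533 FPKM against 13.8 ± 1.12).

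Of 11 markers of conjunctiva and its goblet cells, 6 were at 1 FPKM or more and all 6 were higher in pCEC. They were Krt13, Krt7, Krt4 (155 FPKM), the membrane mucins Muc4 (47.4) and Muc20 (15.8), and Psca, a small surface protein of mucosal epithelia, at 0, 0.194 and 0 FPKM in D0 and 1718 in pCEC. Of these 6, only Krt7 had a D0 mean of 1 FPKM or more, so the others could not have been counted as lower. The goblet cell genes were at or near 0. Muc5ac, the gel-forming mucin of conjunctival goblet cells, Spdef and Tff1 were listed at 0 and Agr2 was at 0.0571 FPKM. Muc16, another membrane mucin of the list, was also under 1 FPKM, at 0.384, 0.514 and 0.594 in D0 and 0.137 in pCEC (25 reads). The summed levels in pCEC were 3915 FPKM for the corneal and 5276 for the conjunctival list, against 114 to 124 and 3.26 to 3.36 in D0. The epithelial markers of this library were thus those of stratified, conjunctival or ductal epithelia together with Pax6 and Aldh3a1. Krt13, Psca, Krt4 and Krt7 were not particular to it, since libraries converted from fibroblasts also held them, as given below. Krt12, Muc16 and the goblet cell genes stayed under 1 FPKM. Which epithelium the markers came from was not tested.

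Junction genes followed the keratins. All 14 tight junction genes at 1 FPKM or more were higher in pCEC, with a median difference of 4.64. Only 4 of the 14 had a D0 mean of 1 FPKM or more. Cldn4, a claudin of tight epithelia, was at 0.545, 0.367 and 0.661 FPKM in D0 and 678 in pCEC, and Cldn7, Cldn3, F11r and Tjp3 lay between 138 and 255 FPKM. Tjp1, the ZO-1 scaffold that corneal endothelium also uses, was at 42.9, 49.4 and 52.1 FPKM in D0 and 131 in pCEC. Of 11 desmosome genes at 1 FPKM or more, 10 were higher and 1 was neither. The D0 mean was at 1 FPKM or more for 3 of the 11. Perp, a desmosomal membrane protein, was at 2.88, 3.3 and 3.55 FPKM in D0 and 478 in pCEC, and the plakophilins Pkp1 and Pkp3 were at 152 and 147 FPKM. The desmogleins of epidermis Dsg1a and Dsg1b and the desmocollin Dsc1 were listed at 0 in pCEC and D0. Hemidesmosomes, which fix basal epithelial cells to their basement membrane, had 4 of 6 genes higher, among them Itgb4 (110.3 FPKM against 1.08 ± 0.122) and Col17a1 (243 against 0.11 ± 0.0256). Plec, the plectin linker, was lower at 25.9 FPKM against 67.4 ± 4.02.

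Among the other cell type lists, fibroblast, macrophage and smooth muscle markers stood lower in pCEC. Of 14 fibroblast markers, 14 were lower in pCEC, with a summed level of 122 FPKM against 26901 to 27537 in D0. Only 7 of the 14 were at 1 FPKM or more in pCEC. Of 11 macrophage markers, 10 were lower and 1 was higher, and 7 were listed at 0 in pCEC. Lyz2, a lysozyme of macrophages, was at 924, 963 and 907 FPKM in D0 and listed at 0 in pCEC, where 3 reads would have given 0.11 FPKM. Apart from Cd68, the macrophage markers were thus higher in the fibroblast libraries. Cd68, a lysosomal protein that other cells also make, was the exception at 97.9 FPKM against 47.9 ± 4.28, and its difference of 1.02 dropped under the limit without D0 replicate 3 and under both scalings of the reads. Of 8 smooth muscle markers 7 were lower, with Acta2, an actin of myofibroblasts, at 2125, 2027 and 1894 FPKM in D0 and 118 in pCEC.

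Markers of tissues near the corneal endothelium varied by tissue. The keratocyte list summed to 279.9 FPKM in pCEC, but 98% of it was Aldh1a1, an aldehyde dehydrogenase that epithelia make too. Kera and Lum, the proteoglycans of the corneal stroma, were listed at 0 in pCEC, and Lum was at 31.5, 33.6 and 29.5 FPKM in D0. The trabecular meshwork list summed to 106 FPKM in pCEC and 261 to 289 in D0. In it, Mgp, a matrix protein that inhibits calcification, was at 67.1 FPKM against 241 ± 16 and Cyp1b1, a cytochrome P450, at 37.4 against 36.5 ± 1.13, while Myoc was listed at 0. Of the pigment cell markers, Mitf was at 2.26 FPKM against 5.87 ± 0.30 and Pmel at 1.36 against 1.11 ± 0.122, and the melanocyte enzymes Tyr, Tyrp1 and Dct were listed at 0. No lens, photoreceptor or erythroid marker reached 1 FPKM in any of the 4 libraries. Of 5 vascular endothelial markers at 1 FPKM or more, 4 were lower and 1 was higher, and with a pseudocount of 5 FPKM none was counted in either direction. The higher one was Esam, an adhesion molecule, at 3.07 FPKM against 0.364 ± 0.27, while Cdh5, Kdr and Cldn5 were listed at 0 in pCEC and Pecam1 was represented by 3 reads. Mbp, a myelin gene also transcribed outside Schwann cells, made 86.9% of the Schwann cell sum, and Sox10 was listed at 0. Leukocyte genes were low, with Ptprc listed at 0 and S100a8 and S100a9 at 0.294 and 0.936 FPKM.

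**Figure D2:**
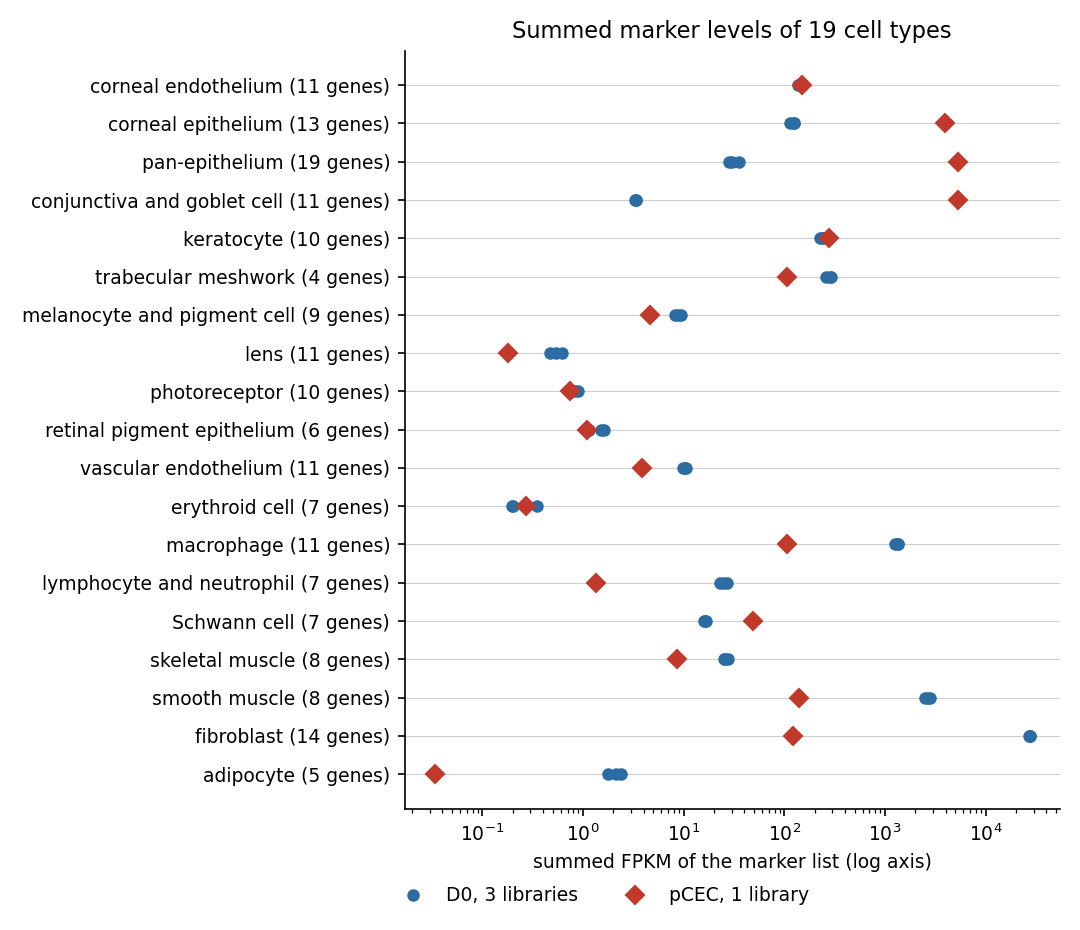
Summed FPKM of the placed members of 19 cell type marker lists on a log axis, with 1 circle for each of the 3 D0 libraries and a diamond for pCEC. The pCEC sum lies far to the right of D0 for the 3 epithelial lists, far to the left for fibroblast, macrophage and smooth muscle, and beside D0 for corneal endothelium.

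Matrix genes had the lowest median of the 46 lists. All 22 fibrillar collagen and matrix genes were lower in pCEC, with a median difference of -7.17. In pCEC, 13 of the 22 were at 1 FPKM or more. Col1a1, the main chain of collagen I, was at 11834, 11122 and 11463 FPKM in D0 and 13.2 in pCEC (interval 12 to 14.4), a difference of -9.66. Col1a2 was at 8.48 FPKM against 5544 ± 97.3, Col3a1 at 5.95 against 2159 ± 28.5 and Postn, a matrix protein of fibroblasts, at 0.34 against 1656 ± 16.1. Bgn, the proteoglycan biglycan, had the largest difference below D0 among the named genes, with 3062, 2964 and 2966 FPKM in D0 and 0.495 in pCEC (-10.97). The matrix genes highest in pCEC were Thbs1 (387 FPKM against 3882 ± 269.8) and Tnc (180.2 against 848 ± 72.8), which encode thrombospondin and tenascin.

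Basement membrane genes split by their chains. Of 17 such genes at 1 FPKM or more, 5 were higher and 9 were lower. Among the higher ones, Lama3 and Lamb3, laminin chains of epithelial basement membranes, were at 30.7 and 109.6 FPKM against 0.0416 ± 0.00969 and 0.0553 ± 0.0505. Lama5 was also higher, at 494 FPKM against 37.2 ± 2.54. The chains Lamb1 (41.2 against 271 ± 5.29) and Lamc1 (68.5 against 177 ± 8.6), the collagen IV genes Col4a1 (38.7 against 1031 ± 67.4) and Col4a2 (37 against 626 ± 20.9), and Nid1 (5.19 against 257 ± 22.2) were lower.

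Transcription factors of mesenchyme and imprinted growth genes were low. Of 11 mesenchymal factors at 1 FPKM or more, 11 were lower in pCEC, among them Zeb1 (2.04 FPKM against 70.8 ± 5.09) and Prrx1 (6.08 against 129.6 ± 10). Snai2, which basal epithelial cells also use, was the highest of them at 11.9 FPKM against 39.4 ± 0.746. All 11 imprinted growth genes at 1 FPKM or more were lower. H19, an imprinted noncoding RNA of fetal tissues, was at 841, 875 and 844 FPKM in D0 and was represented by 1 read in pCEC (0.0388 FPKM). Peg3 and Grb10 stood at 0.132 and 2.75 FPKM against 299 ± 41.1 and 696 ± 26.5. The age of the animals differs between the groups together with the cell type, and the 2 cannot be told apart.

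Of 11 periocular mesenchyme factors at 1 FPKM or more, 6 were higher, 2 were lower and 3 were neither. The shares over all genes were 20.6% higher and 17.1% lower. Eya2, a transcriptional cofactor, was at 0.927, 0.841 and 0.706 FPKM in D0 and 78.1 in pCEC, and Foxc1, a forkhead factor of the anterior eye segment, at 21.7 against 2.61 ± 0.247. Of 12 eye field and lens factors, 4 were at 1 FPKM or more in some library, of which 3 were higher and 1 was lower. Six3 was listed at 0 in D0 and stood at 9.48 FPKM in pCEC (interval 8.73 to 10.3). Sox2, a factor of progenitor and ocular surface cells, was at 36.1 against 0.241 ± 0.0989. Maf was the lower one, at 1.7 FPKM against 11.7 ± 0.491. Six6, Rax and Foxe3, factors of retina and lens, were listed at 0 in pCEC.

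Hox genes, which mark the position of cells along the body axis, were transcribed in the pCEC library. Of 39 Hox genes, 18 were at 1 FPKM or more in pCEC, and of 31 tested none was higher, 17 were lower and 14 were neither. Hoxa9 was at 16, 18 and 17.3 FPKM in D0 and 16.3 in pCEC (interval 14.9 to 17.8), and Hoxa7 at 13.2, 12.1 and 12.1 in D0 and 15.3 in pCEC. Hoxb6, the highest Hox gene of pCEC, was at 15.7, 16.6 and 15.6 FPKM in D0 and 25.2 in pCEC (interval 23.6 to 27). In the Hoxa and Hoxb clusters, all but 1 of the 14 tested genes of paralogous groups 1 to 9 were neither higher nor lower, the exception being Hoxb9 (14.8 FPKM against 45.1 ± 0.986). In the Hoxc cluster, all 8 tested genes were lower, with Hoxc6 at 62.2, 63.1 and 62.9 FPKM in D0 and 9.32 in pCEC. Of the 10 tested genes of paralogous groups 10 to 13, 10 were lower, and Hoxa10 was the one of them with reads in pCEC, at 1.83 FPKM against 34.4 ± 1.56. As background, trunk Hox genes such as Hoxb6, Hoxa7 and Hoxa9, like the more posterior groups, are known to be silent in the head, where the eye forms.

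**Figure D3:**
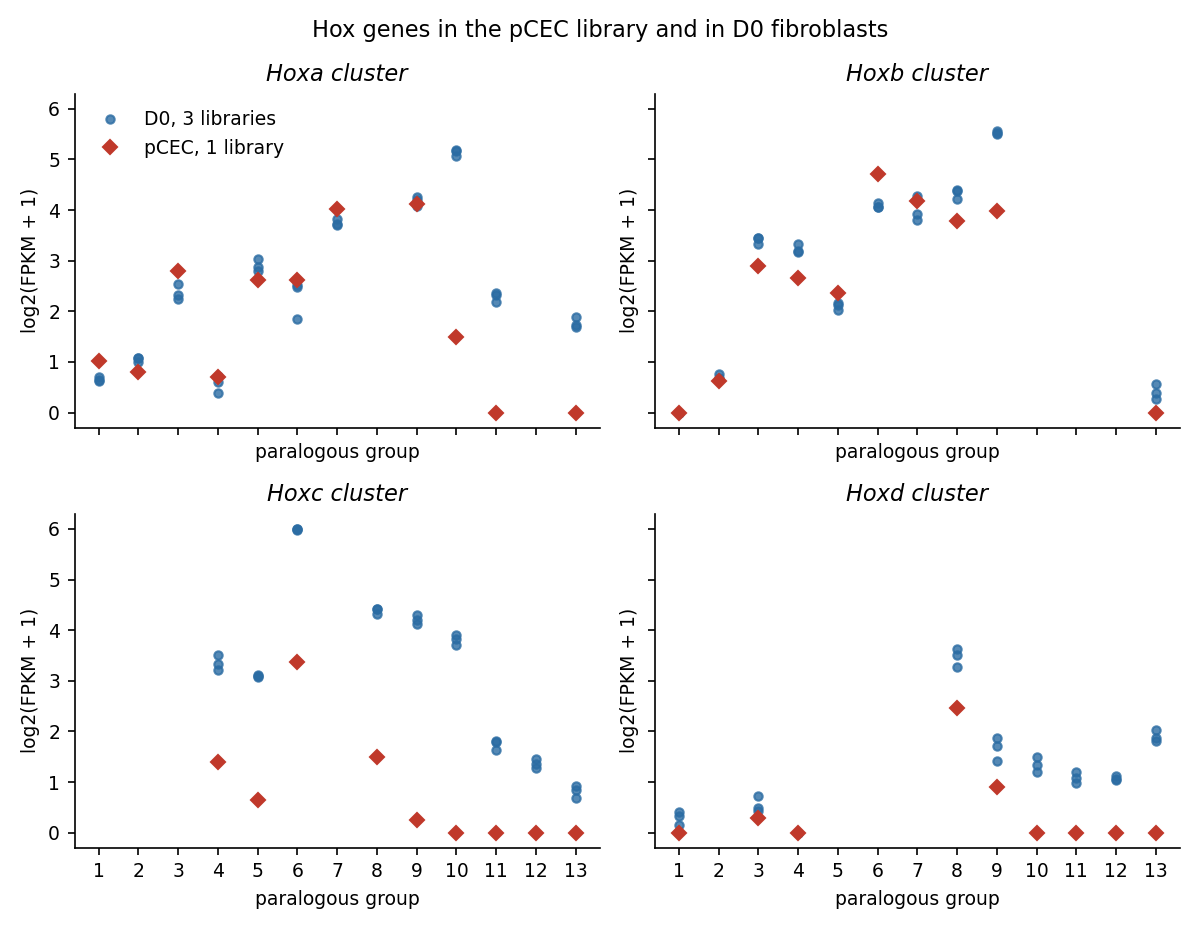
Levels of 39 Hox genes as log2(FPKM + 1) by cluster and paralogous group, with 1 circle for each of the 3 D0 libraries and a diamond for pCEC. In the Hoxa and Hoxb clusters the pCEC diamonds lie near the D0 circles up to group 9 except for Hoxb9, and in Hoxa they lie below them from group 10 on.

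Genes of ion and water transport, the textbook task of the corneal endothelium, were more often higher than lower in pCEC. Of 15 pump and transport genes at 1 FPKM or more, 8 were higher, 2 were lower and 5 were neither, with a median difference of 1.02. Over all genes, 20.6% were higher and 17.1% were lower, with a median of 0.11. Atp1b1, a beta subunit of the sodium pump, was at 32.2, 35.6 and 34.8 FPKM in D0 and 262 in pCEC, and the cytosolic carbonic anhydrase Car2 at 0.24, 0.115 and 0.402 in D0 and 111 in pCEC. Carbonic anhydrase 4 (Car4), a membrane form, was listed at 0 in all 4 libraries and the chloride channel Cftr was at 0.0641 FPKM. Of 6 water channel genes at 1 FPKM or more, 5 were higher in pCEC and 1, Aqp1, was lower. Aqp1 is on the corneal endothelial marker list, while Aqp5 is on the corneal epithelial one. The D0 mean was at 1 FPKM or more for 2 of the 6. Aqp5 was at 5.06, 4.37 and 3.88 FPKM in D0 and 290.1 in pCEC, Aqp3 at 0.0481, 0.115 and 0.0504 in D0 and 136 in pCEC, and Aqp4 at 12.7 against 0.0819 ± 0.0229.

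Secreted proteins of innate defence were abundant in pCEC. Of 8 secreted defence genes at 1 FPKM or more, 8 were higher in pCEC, with a median difference of 7.42. Only 2 of the 8 had a D0 mean of 1 FPKM or more, so the others could not have been counted as lower. Ltf made 84.5% of the list's summed 19566 FPKM in pCEC, against a sum of 63.9 to 67.9 FPKM in D0. Lcn2, which binds bacterial iron carriers, was at 0, 0.0899 and 0 FPKM in D0 and 1038 in pCEC, and Wfdc2, an epithelial protease inhibitor, at 0.0991, 0.158 and 0.519 in D0 and 1147 in pCEC. Pigr, the receptor that carries IgA across epithelia, was listed at 0 in D0 and stood at 163 FPKM in pCEC, and Arg1, an arginase, at 361 against 1.04 ± 0.441. Lyz1, the second lysozyme gene, was listed at 0 in pCEC. Of 16 detoxification genes, 12 were higher and 2 were lower: Gsta4 was at 20.2, 19 and 15.7 FPKM in D0 and 1448 in pCEC, and Gpx3, a secreted glutathione peroxidase, at 155, 153 and 135 in D0 and 2.6 in pCEC.

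Interferon-induced genes were higher in pCEC for 17 of 20 members, with 3 neither and a median difference of 3.15. Oasl2, an antiviral protein of the oligoadenylate synthetase family, was at 24.3, 24.8 and 25 FPKM in D0 and 809 in pCEC. Ifit3, which binds viral RNA together with its relatives, was at 17.1, 17.2 and 14.4 FPKM in D0 and 578 in pCEC (interval 571 to 586). Oasl1 was at 472 FPKM against 1.97 ± 0.196, and Isg15, a ubiquitin-like protein, at 100.4, 91.1 and 81.7 in D0 and 287 in pCEC. Of 12 genes of MHC class I presentation, 9 were higher and 3 were neither. H2-K1 was at 83.1, 78.1 and 71.3 FPKM in D0 and 1956 in pCEC, H2-D1 at 141, 129.9 and 128 in D0 and 2037 in pCEC, and B2m, their shared light chain, at 465, 477 and 424 in D0 and 2009 in pCEC. H2-K1 and H2-D1 are close paralogs, so reads may be split between them. Of 14 cytokine and chemokine genes, 8 were higher and 5 were lower. Il33, an alarm cytokine of epithelia, was at 2.47, 2.0 and 2.41 FPKM in D0 and 161 in pCEC, and Ccl7 and Ccl2, chemokines that draw monocytes, were listed at 0 and at 0.101 FPKM in pCEC against 143 ± 9.19 and 98.7 ± 7.07.

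Since most interferon-induced members were higher, their upstream sequences were searched for the interferon-stimulated response element, spelled here as GAAANNGAAA on either strand with overlapping matches counted. RefSeq windows of 250 bases before the gene start (GRCm38.p6) were found for 14 of the 20 genes. Of these, 7 held a match, as did 5 of the 11 that were higher in pCEC with a window, while 936 of 27025 genes with a window (3.46%) held one. The windows of Ifit3 (chr19:34583279-34583528, plus strand), Ifit1 (chr19:34640639-34640888, plus strand) and Isg15 (chr4:156200819-156201068, minus strand) are shown 5′ to 3′ with the matches in capitals. Ifit1 was at 11.8, 11.5 and 12.6 FPKM in D0 and 182 in pCEC. In Isg15 3 matches overlap. These windows were chosen because they hold matches. The windows of Oasl1 and Oasl2 hold none, and those of Bst2 and Stat2, which were neither higher nor lower, hold one or more. A match describes the letters of the window, not a binding site.
Ifit3: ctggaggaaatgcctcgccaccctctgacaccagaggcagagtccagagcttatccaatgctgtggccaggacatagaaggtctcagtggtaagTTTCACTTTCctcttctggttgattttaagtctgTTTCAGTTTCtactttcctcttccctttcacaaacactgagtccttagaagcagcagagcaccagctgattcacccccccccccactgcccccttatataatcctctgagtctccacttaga
Ifit1: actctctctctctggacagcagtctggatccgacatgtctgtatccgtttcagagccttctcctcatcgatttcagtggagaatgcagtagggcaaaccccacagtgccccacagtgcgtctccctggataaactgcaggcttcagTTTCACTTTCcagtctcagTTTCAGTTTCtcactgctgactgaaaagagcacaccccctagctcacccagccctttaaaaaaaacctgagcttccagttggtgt
Isg15: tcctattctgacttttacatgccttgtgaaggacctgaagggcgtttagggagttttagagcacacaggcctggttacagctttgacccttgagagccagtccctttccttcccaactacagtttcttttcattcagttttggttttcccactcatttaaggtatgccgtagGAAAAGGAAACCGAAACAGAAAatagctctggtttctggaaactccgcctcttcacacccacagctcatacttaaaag

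Retinoid genes were mostly higher. Of 13 at 1 FPKM or more, 9 were higher and 3 were lower. Stra6, the membrane receptor for retinol uptake, was at 0.644, 0.696 and 0.397 FPKM in D0 and 177 in pCEC, and Dhrs3, which turns retinal back to retinol, at 213 against 13.1 ± 1.38. Crabp1, a retinoic acid binding protein of embryonic mesenchyme, was lower, with 615, 603 and 528 FPKM in D0 and 0.241 in pCEC.

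The neural crest list, the lineage from which corneal endothelium arises, had 5 of 12 genes higher, 3 lower and 4 neither. Over all genes, 20.6% were higher and 17.1% were lower. Sox9 was at 36.9 FPKM against 7.13 ± 0.318, while Sox10 was listed at 0 in pCEC against 1.91 ± 0.291. Of 9 Wnt feedback and target genes, 3 were higher and 5 were lower, with Rnf43, which removes Wnt receptors, at 11 FPKM against 0.42 ± 0.104 and the Wnt inhibitor Dkk2 at 0.117 against 31.6 ± 1.4. Of 12 mitochondrial genes, 2 were higher, 2 were lower and 8 were neither, which is near the shares over all genes.

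Cell division and sterol synthesis were lower in pCEC. Of 28 placed proliferation genes, 24 were lower and 4 were neither, with a median difference of -1.97. Mki67, a protein of cycling cells, was at 21.8, 23 and 24.6 FPKM in D0 and 5.01 in pCEC (interval 4.6 to 5.45). Pcna (69.5 FPKM against 72.9 ± 6.25) and Mcm7 (49.8 against 47.9 ± 1.15), which act in DNA replication, were neither. Of 18 cholesterol synthesis genes, 14 were lower and 4 were neither, with Cyp51 at 213, 214 and 217 FPKM in D0 and 26 in pCEC and Insig1, a sterol sensor, at 8.11 against 98.1 ± 3.18. Nuclear genes of oxidative phosphorylation were neither for 15 of 17 members. Of 16 glycolysis genes, 6 were higher and none was lower, with the hexokinase Hk1 at 83.2, 88.7 and 80 FPKM in D0 and 277 in pCEC. Of 18 immediate early and heat shock genes, 6 were higher, 1 was lower and 11 were neither, beside 20.6% higher and 17.1% lower over all genes. Junb, a transcription factor of early responses, was at 346 FPKM against 70.8 ± 4.3, Hspb1, a small heat shock protein, at 911 against 155 ± 9.03, and Fos at 17.9 against 17.1 ± 0.20. The part of these genes in the differences of other groups was not tested.

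**Figure D4:**
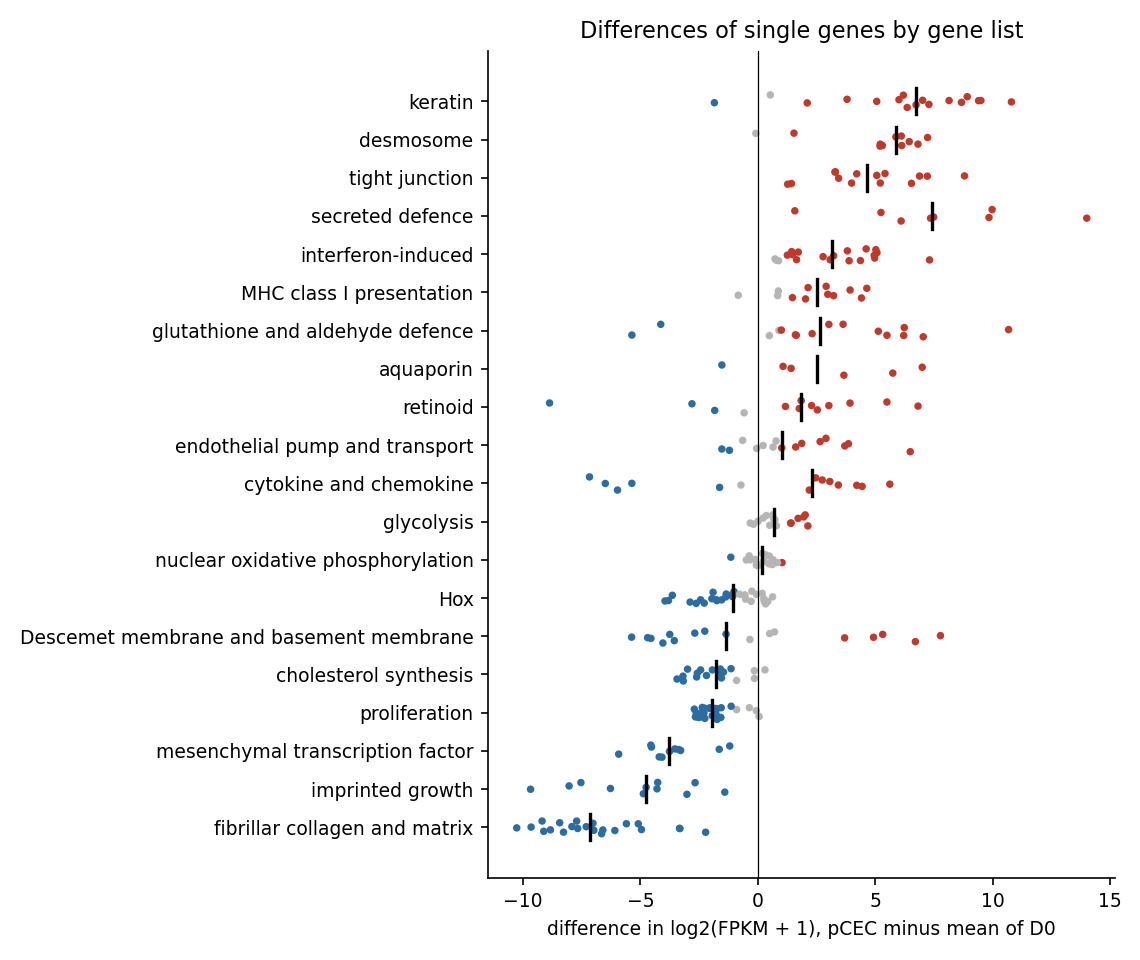
Differences in log2(FPKM + 1), pCEC minus the mean of D0, for each gene at 1 FPKM or more in 20 gene lists, with genes counted as higher in red, lower in blue and neither in grey, and a black bar at the list's median. Keratin, junction and secreted defence genes lie to the right, matrix, imprinted and mesenchymal genes to the left, and oxidative phosphorylation genes around 0.

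Several of the 12 largest differences in each direction, among genes with whole reads in pCEC, were genes outside the lists. Genes listed at 0 in pCEC, such as Lyz2 with a difference of -9.86, were not ranked. S100a14, a calcium-binding protein of epithelia, and Upk3bl, a uroplakin-like protein, were listed at 0 in D0 and stood at 630.4 and 592 FPKM in pCEC. Ptn, a secreted growth factor, was at 1197, 1191 and 1088 FPKM in D0 and 0.486 in pCEC. Of list members among the lowest, Thy1, a surface protein of fibroblasts, was at 1484, 1437 and 1331 FPKM in D0 and 0.525 in pCEC.

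Transcripts of the sex chromosomes also separated the groups. Xist, the RNA that coats the inactive X chromosome, was at 54.6, 67.8 and 85.4 FPKM in D0 and 279 in pCEC. The Y-linked genes Ddx3y (11.2, 12.9 and 14.4 FPKM) and Eif2s3y (16.5, 18.4 and 19.3) were present in every D0 library and listed at 0 in pCEC, as were Kdm5d and Uty. The labels give no sex for either group.

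Beside the 4 libraries of cells that were converted from fibroblasts (labelled ciCEC, P1 and P8), pCEC stood closer to 3 of them than to the other one. Spearman's rho across the same 16138 genes was 0.934 with P1 replicate 1, 0.893 with P1 replicate 2 and 0.922 with P8 replicate 1, but 0.756 with P8 replicate 2, which stood at 0.923 to 0.925 with the D0 libraries. Ltf, 16535 FPKM in pCEC, was at 14897 and 39986 in P1 and at 56229 and 0.0664 in P8. Krt5 was at 2360.3 and 2192 FPKM in P1 and at 2382 in P8 replicate 1, above the 676 of pCEC, and listed at 0 in P8 replicate 2. Krt13, 1846 FPKM in pCEC, was at 1123 and 3807 in P1 and at 3160 and 0.114 in P8. Psca, 1718 FPKM in pCEC, was at 1023 and 2280 in P1 and at 3896 and 0 in P8. Krt4, 155 FPKM in pCEC, was at 131 and 1155 in P1 and at 16.5 and 0 in P8. Krt7, 1494 FPKM in pCEC, was lower in these libraries, at 363 and 1391 in P1 and at 709 and 0.0484 in P8. Pax6 was higher in pCEC than in these 4 libraries, with 18.9 FPKM against 0.151 and 0.969 in P1 and 0.414 and 0.0258 in P8. Aldh3a1 was at 1642 FPKM in pCEC and at 130.4 and 86.4 in P1 and 112 and 0.285 in P8. Hoxa9 was at 32.4 and 12.3 FPKM in P1 and at 58.9 and 4.73 in P8, on either side of the 16.3 of pCEC. These differences rest on single libraries and were not tested.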

How the data were processed

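RNA was sequenced in 13 libraries, of which pCEC (1) and D0 (3) are compared here, with P1 and P8 (2 each) set beside them. Per gene, the authors deposited FPKM. The submitters' processing notes list Bowtie 0.12.2, mm8 and mm10 without roles. The table's 54232 Ensembl IDs follow the D0 columns.

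The lines of pCEC were placed on genes by the order of a hash table with 131072 slots, searched to 10 probe positions. A value had to give whole reads, within 0.001, when multiplied by gene length and library total. The length was the rounded mean transcript length of GENCODE M21, which suited 24172 genes in D0 (95.3% of those for which some length did), or otherwise a multiple of the smallest length that made the D0 values whole (1204 genes). Genes with no D0 read kept the annotated length. A placement needed a posterior of at least 0.99, and expression levels of other libraries were not used. The approach came from earlier work on these data.

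Levels were compared as log2(FPKM + 1) in Python 3.11 with no test, since pCEC is 1 library. Genes entered at 1 FPKM or more in 1 library. The rule was tested on simulated reads of 13458 genes, where 199 of 200 genes with a 4-fold change were recovered and 34 others were counted. The changed genes were drawn from those at a D0 mean of about 5 FPKM or more, and the noise was the same in pCEC as in D0. The recovery therefore does not cover genes at or near 0 in D0. Neither number covers differences between animals, dissections or batches. Named genes were the 10 most abundant of pCEC, the 12 largest differences in each direction among genes with whole reads, up to 4 members per list highest in pCEC and up to 4 highest in D0, and 16 anchors. Some named genes are not reported here. Other genes named were chosen after their values were seen. The 46 gene lists and their members were chosen with earlier results of these data known. Of the 588 listed genes, 581 were placed.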

Additional observations from a re-analysis of the deposited data

How the results depend on the processing

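The counts of genes higher and lower in pCEC, and of listed genes in either direction (354 of 453), stayed within 1.5 times of their value under most settings. The exceptions were a pseudocount of 5 FPKM, with 1861 genes higher and 1447 lower, and a log2 difference of at least 2, with 1285 higher and 1096 lower. Leaving out each D0 library in turn gave 3121 to 3122 genes higher and 2589 to 2607 lower. Scaling factors from recovered reads moved the median difference over all genes from 0.108 to -0.048 (trimmed mean of M values) and 0.001 (median of ratios), and the share of higher genes among all counted from 54.6% to 48.5% and 50.3%. No log2 difference of a counted named gene changed sign under the settings run. Restricting to genes whose annotated length gave whole reads in D0 left 9 higher keratins and 3 higher conjunctival markers, because genes at 0 in D0 cannot pass that check. Cd68 was no longer counted as higher with either scaling. With a pseudocount of 5 FPKM, 2 corneal endothelial markers and 8 Hox genes were counted as lower, and the filter at 5 FPKM left 3 and 9. With no pseudocount and zeros set to the value of 3 reads in that library, the median log2 ratio was, by list, 9.14 for keratins, 7.70 for tight junctions, 9.69 for secreted defence, 8.04 for pan-epithelial markers, -8.61 for matrix and -2.42 for corneal endothelium.

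No paired analysis was possible because pCEC is 1 library and carries no replicate number. With 1 pCEC library, differences between animals, dissections or cultures cannot be seen. Reads resolve about 0.145 FPKM (3 reads) for a transcript of 1 kb. In pCEC, 625 tested genes were listed at 0, and 11 genes at 0 there stood at 1 FPKM or more in every D0, P1 and P8 library. The number of unresolved Ensembl IDs was 588, 140 of them at a mean of 1 FPKM or more in D0, and Ovol1, Dsg3, Mcm2, Ndufa2, Ndufb8 and Axin2 of the gene lists are among them.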
